A study of Homo sapiens with 12 samples.

Results

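Long intergenic noncoding RNA genes (lincRNAs) were followed through the knockout and return of AGO2 in HCT116, a human colorectal carcinoma line. They were all genes of the deposited tables whose GENCODE 29 gene type is lincRNA, apart from genes on chromosome 7, NEAT1, MALAT1 and symbols that start with MIR and end with HG. This left 418 of the 15074 genes in the tables, and 38 other lincRNA genes there were set aside by these conditions. AGO2 is an Argonaute, the kind of protein that carries a microRNA to the transcripts it silences, and the study asked which transcripts depend on a cycle of phosphorylation of that protein. The 12 libraries fell into 4 groups of 3: knockout cells given back the 5xA mutant of FH-tagged AGO2 (FH-5xA), in which phosphorylated residues are replaced by alanine, knockout cells given back wild-type FH-tagged AGO2 (FH-WT), cells labelled as an AGO2 knockout (knockout, AGO2_KO), and parental HCT116 cells. All of them therefore share the HCT116 background, and both FH groups also carry the knockout. The sources used here do not say whether each line was 1 clone. Triplicate wells of 500000 cells were harvested at 48 h, and total RNA was depleted of ribosomal RNA, so that transcripts without a poly(A) tail could be counted as well.

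lincRNAs are transcribed by RNA polymerase II from their own promoters, are often spliced and polyadenylated, and hold no long conserved reading frame. Most are made at a lower level than mRNAs, and some stay in the nucleus while others reach the cytoplasm, where Argonaute proteins act. Known roles include scaffolds for chromatin regulators, baits for RNA-binding proteins, transcription next to a gene that is tuned by it, and hosting small nucleolar RNAs or microRNAs in introns.

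All values were read or derived from the authors' deposited tables, which give a log2 fold change, a likelihood ratio score and a false discovery rate for each gene, but no value per library. A gene is called at a deposited false discovery rate under 0.05. The error after ± is a standard error (SE) derived from the deposited fold change and score. A level is a fitted value in CPM, counts scaled to the library's total, for each group, computed from the deposited mean and fold changes with the 4 groups weighted equally; it has no error of its own and is approximate. Of the epithelial and colorectal markers, 5 of 9 were in the tables (CDH1, KRT18, EPCAM, CDX2 and KRT8), with a summed level of 1534 CPM in FH-5xA, 1465 in FH-WT, 1619 in knockout and 2196 in parental cells. None of the 4 endothelial or 4 blood markers was in the tables, and of 6 fibroblast markers COL1A1 alone was, at 1.83 to 4.99 CPM over the groups. Of 4 markers of embryonic kidney and neural cells, PAX2, NES and TUBB3 were in the tables, with a summed level of 41.8 CPM in FH-5xA, 45.4 in FH-WT, 42.8 in knockout and 29.1 in parental cells. Both marker sums thus set the parental cells apart from the other groups, and their part in the results was not tested. In such bulk RNA, fewer cells with a transcript and less of it per cell cannot be told apart. In the authors' deposited tables AGO2 mRNA stood at 0.73 ± 0.07 in FH-5xA against knockout, 0.75 ± 0.07 in FH-WT against knockout and -0.35 ± 0.07 in knockout against parental cells. The sources used here do not say where the AGO2 gene was edited, so its mRNA does not test the knockout label.

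The 418 lincRNAs were mostly genes without an established name. Of their symbols, 92 began with LINC, 253 were clone names, and 73 were others such as NORAD, UCA1 or CRNDE; 171 have no better name than their identifier in a current symbol table. They had a median of 2049 exonic bases (173 to 28487), and 150 had a single exon. In the authors' deposited tables their mean expression had a median of 0.98 on the log2 CPM scale (-0.44 to 8.31), against 4.45 for all genes, and 212 of them lay under 1. Per length, the level ran from -3.73 to 6.30 log2 CPM per kilobase of exon. The levels were concentrated: the 10 most abundant lincRNAs held 33.2% of the summed CPM of all 418, and NORAD alone held 13.5%. All 418 together made up 0.240% of the fitted CPM in FH-5xA, 0.235% in FH-WT, 0.231% in knockout and 0.230% in parental cells. By GENCODE positions 197 overlapped no other gene, while 221 did, 85 of them a protein-coding gene. Overlaps on either strand were counted among those 221. The library kit keeps strand, but the sources used here do not say whether the counting used it. Reads of overlapping genes on opposite strands may therefore not have been told apart. Genes that overlap on the same strand may share reads whatever the strand setting.

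AGO2 binds its targets through the seed of the bound microRNA, bases 2 to 8. Sites for 8 microRNAs of epithelial and cancer cells were therefore counted in the longest GENCODE 29 transcript of each lincRNA, as the exact complement of the seed on the transcript strand. The mature sequences below, from RefSeq (GRCh38.p14), have their seeds in capitals, and no pair of them shares a seed.
let-7a-5p: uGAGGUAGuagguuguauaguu
miR-17-5p: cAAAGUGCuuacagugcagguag
miR-19b-3p: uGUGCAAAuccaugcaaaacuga
miR-200c-3p: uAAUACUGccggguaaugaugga
miR-21-5p: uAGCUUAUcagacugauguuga
miR-16-5p: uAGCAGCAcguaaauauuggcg
miR-29a-3p: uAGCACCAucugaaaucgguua
miR-34a-5p: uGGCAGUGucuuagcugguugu
At least 1 site for any of the 8 was present in 266 lincRNAs and none in 152. Sites for miR-17-5p were in 23.2% of the 418 and sites for miR-16-5p in 22%, against 36.6% and 54% of protein-coding genes in the tables, whose longest transcripts are longer (a median of 3785 against 1757.5 bases). Per kilobase, miR-17-5p sites numbered 0.134 in lincRNAs and 0.125 in protein-coding genes. For miR-16-5p these rates were 0.137 and 0.238, so its sites were also sparser in lincRNAs per length. The windows below, from GENCODE 29 transcripts, show such matches in capitals in members that the results turn on.
LNCAROD (miR-16-5p site): ctcaactcTGCTGCTtttactct
LINC00326 (miR-200c-3p site): tgaaaattCAGTATTttcacaag
CRNDE (miR-29a-3p site): cttattcgTGGTGCTttaaaaat
PURPL (miR-21-5p site): gggggagcATAAGCTaaggaata
PURPL (miR-29a-3p site): gtgtgaggTGGTGCTatgtagca
AL161431.1 (miR-21-5p site): gattacacATAAGCTgtcataca
AL161431.1 (miR-34a-5p site): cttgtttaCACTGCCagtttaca
AL161431.1 (miR-34a-5p site): ttttggtcCACTGCCtccccact
UCA1 and SNHG9 held none of the 8. A match is a run of letters and no measured binding.

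Promoters of 300 bases (250 before and 50 after the start, RefSeq) were matched by symbol and chromosome for 156 of the 418. A matched start need not be near a GENCODE start of the member. For AC016205.1 it lay 48323 bases away and for Z97832.2 34825 bases away. The matched promoters were richer in G and C than all RefSeq promoters, with a median of 63% against 58.7%, and held a median of 22 against 14 CG dinucleotides. All RefSeq promoters were taken whether or not their genes were measured here. Searched on both strands, the GC box GGGCGG was in 55.8% of them and in 45.0% of all promoters, CCAAT in 41.0% and 34.6%, CACGTG in 10.3% and 7.26%, CACCTG in 21.2% and 20.6%, and TATAAA in 9.62% and 11.5%. LNCAROD, whose level was called in every comparison with the knockout or the parental cells, and NORAD, the most abundant member, which was called in none of the comparisons, are shown with their matches in capitals.
LNCAROD promoter, chr10:52470484-52470783 of GRCh38.p14, minus strand: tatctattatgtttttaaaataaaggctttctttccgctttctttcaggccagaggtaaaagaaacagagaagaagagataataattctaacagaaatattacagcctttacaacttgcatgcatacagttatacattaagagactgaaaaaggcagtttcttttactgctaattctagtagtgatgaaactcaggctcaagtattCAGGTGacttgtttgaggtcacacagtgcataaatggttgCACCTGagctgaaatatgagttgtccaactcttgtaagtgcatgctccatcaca
NORAD promoter, chr20:36050911-36051210 of GRCh38.p14, minus strand: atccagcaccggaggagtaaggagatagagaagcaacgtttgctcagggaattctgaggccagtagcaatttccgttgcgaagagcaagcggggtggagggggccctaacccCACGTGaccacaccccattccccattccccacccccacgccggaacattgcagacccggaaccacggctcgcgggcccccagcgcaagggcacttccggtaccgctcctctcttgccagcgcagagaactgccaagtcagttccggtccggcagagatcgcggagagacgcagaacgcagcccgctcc
The LNCAROD promoter has 36% G and C with 1 CG dinucleotide and holds 2 matches to CACCTG or its complement, while that of NORAD has 63% with 23 CG dinucleotides and holds CACGTG. These letters were not measured here as binding sites. The LNCAROD promoter shown lies at an annotated start inside the gene body given further on. Promoters at starts further upstream in that gene were not examined.

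In knockout against parental cells 162 of the 418 lincRNAs were called, or 38.8%, where 44.4% of all genes in the authors' deposited table were. Of these 93 were higher (22.2%, against 23.2% of all genes) and 69 lower (16.5%, against 21.2%), and the median log2 fold change of lincRNAs was 0.06, against -0.01 for all genes. For a mean under 1 log2 CPM the median was 0.11 in lincRNAs and 0.13 in protein-coding genes outside chromosome 7. From 1 to 2 log2 CPM these medians were 0.09 and 0.12. In FH-5xA against knockout 30 were called (7.18%, against 11.3% of all genes), 24 of them higher (5.74%, against 5.04%) and 6 lower (1.44%, against 6.24%). In FH-WT against knockout 23 were called (5.50%, against 10.1%), with 12 higher (2.87%, against 4.21%) and 11 lower (2.63%, against 5.85%). The lincRNA shares thus lay below those of all genes, apart from rises with FH-5xA, where the shares were close. SEs of lincRNAs were wider, with a median of 0.209 against 0.117 over all genes in knockout against parental cells.

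The shares were also set beside those of protein-coding genes of similar mean expression, outside chromosome 7. In knockout against parental cells 33.5% of the 212 lincRNAs with a mean under 1 log2 CPM were called, against 37.5% of such protein-coding genes, in the authors' deposited table. From 1 to 2 log2 CPM the shares were 31.9% against 38.2%, and at 4 or more they were 48% against 48.5%. Between 2 and 4 log2 CPM alone the lincRNAs were above, at 55.6% of 90 against 44.1% of protein-coding genes. In FH-5xA against knockout the lincRNAs lay below protein-coding genes in 3 of the 4 expression classes (6.13% against 11%, 6.59% against 15.7% and 8.89% against 14%), and at 4 log2 CPM or more 12% of 25 lincRNAs and 11.4% of protein-coding genes were called. In FH-WT against knockout the same 3 classes gave 4.25% against 7.03%, 3.30% against 10% and 7.78% against 9.72%, and the highest class gave 16% against 12.2%.

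**Figure D1:**
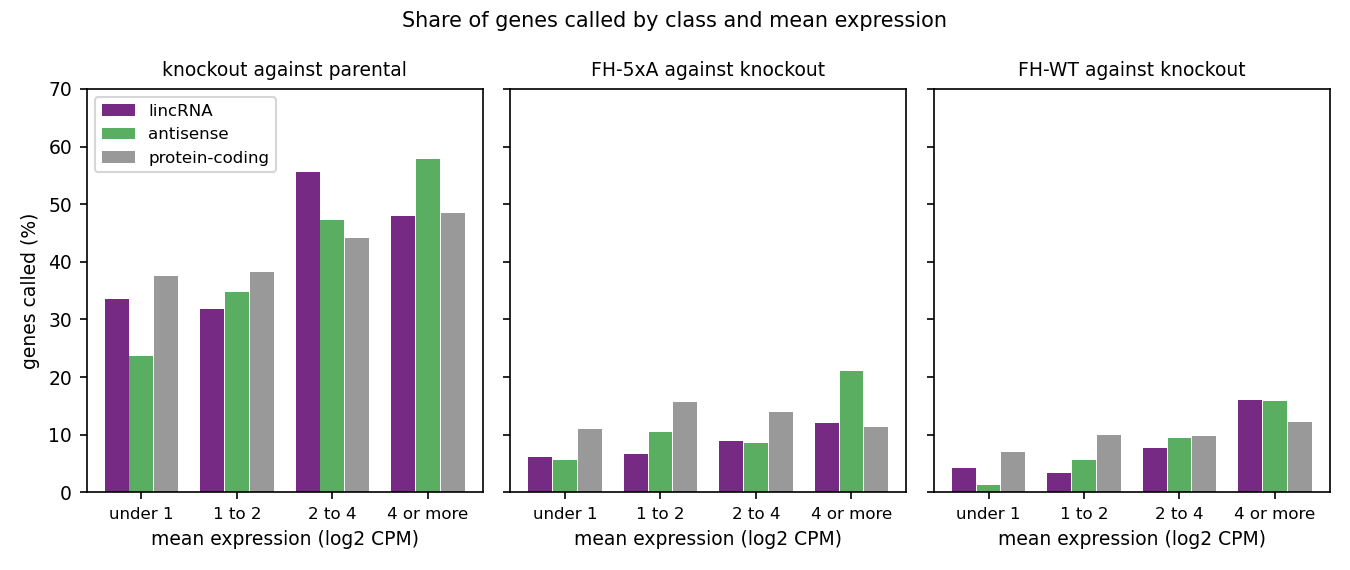
Share of genes called (%, vertical axis) in 4 classes of mean expression (log2 CPM, horizontal axis) for lincRNAs, antisense genes and protein-coding genes outside chromosome 7, in knockout against parental, FH-5xA against knockout and FH-WT against knockout. In knockout against parental cells lincRNAs between 2 and 4 log2 CPM reach 55.6%, and those under 1 reach 33.5%.

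Among the lincRNAs that fell in the knockout, LINC00326 fell most. This intergenic gene of up to 6 exons lies at chr6:133088080-133106578, plus strand (GRCh38), overlaps no annotated gene and is 152518 bases from the nearest coding start, that of EYA4. Its fitted level was 0.382 CPM in FH-5xA, 0.476 in FH-WT, 0.573 in knockout and 6.52 in parental cells, so all lines that went through the knockout were near the bottom of the measured range. Its log2 fold change in knockout against parental cells was -3.51 ± 0.19 in the authors' deposited table (false discovery rate 6.1e-77). AGO2 of either form did not bring a called change: the deposited tables of the authors gave -0.59 ± 0.36 in FH-5xA against knockout and -0.27 ± 0.37 in FH-WT against knockout, at false discovery rates of 0.32 and 0.721. Whether this loss belongs to AGO2 or to the knockout line cannot be told apart in this design.

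AL035661.1, named after its values were seen because it has a mean of -0.35 log2 CPM, came next with a fall of 2.99 ± 0.28 in the authors' deposited table. Of those with a mean of at least 0 log2 CPM SFTA1P followed, a transcribed pseudogene named for a surfactant-associated protein, with a fitted level of 0.61 CPM in FH-5xA, 0.756 in FH-WT, 0.729 in knockout and 2.21 in parental cells. It fell by 1.60 ± 0.23 in knockout against parental cells in the authors' deposited table. SFTA1P lies 3417 bases from a start of CELF2, an RNA-binding splicing regulator; CELF2, looked up after its neighbour's values were seen, stood at -1.20 ± 0.12 there and at -1.06 ± 0.16 in FH-5xA and -1.26 ± 0.17 in FH-WT against knockout in the authors' deposited tables. LINC00960 fell by 1.41 ± 0.28 and CRNDE, first described as raised in colorectal tumours, by 1.39 ± 0.23 in the authors' deposited table, where both were called. The level of CRNDE was 3.25 CPM in FH-5xA, 3.41 in FH-WT, 2.41 in knockout and 6.32 in parental cells, lowest in the knockout; with FH-5xA it was 0.43 ± 0.24 and with FH-WT 0.50 ± 0.24 against knockout, with no call for either in the authors' deposited tables. IRX5, the homeobox gene that shares its promoter region, was at -0.38 ± 0.20 in knockout against parental cells with no call in the authors' deposited table (false discovery rate 0.113).

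AC078923.1 fell by 1.23 ± 0.11 and AC078820.1 by 1.16 ± 0.10 in knockout against parental cells in the authors' deposited table. The body of AC078820.1 lies inside that of AC078923.1 on the minus strand of chromosome 12, so that the pair may share reads. AC078923.1 had 4.99 CPM in FH-5xA, 4.15 in FH-WT, 4.27 in knockout and 9.99 in parental cells, and AC078820.1 had 4.53 CPM in FH-5xA, 4.92 in FH-WT, 5.0 in knockout and 11.2 in parental cells. AC084082.1 fell by 1.36 ± 0.23, LINC01714 by 1.19 ± 0.20 and C2orf48 by 1.09 ± 0.25 in the authors' deposited table. SNHG9, a host of small nucleolar RNA, fell by 1.51 ± 0.18 there and is described with its group.

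The largest called rise in the knockout was that of AL033397.1 at chr6:53561289-53617171, minus strand, a gene of up to 5 exons that overlaps GCLC, which encodes the catalytic subunit of glutamate-cysteine ligase. Its level was 1.69 CPM in FH-5xA, 2.0 in FH-WT, 2.13 in knockout and 0.466 in parental cells, and it rose by 2.19 ± 0.25 in knockout against parental cells in the authors' deposited table. AL161431.1, now named LINC03061, lies at chr13:109269634-109278512, plus strand and overlaps no other gene. Its level was 3.94 CPM in FH-5xA, 3.59 in FH-WT, 3.47 in knockout and 0.9 in parental cells: parental cells were low and the other groups close together. The rise in the knockout was 1.95 ± 0.32 in the authors' deposited table, and with FH-5xA and FH-WT it stayed at 0.19 ± 0.29 and 0.05 ± 0.30 against knockout, neither of them called. PURPL, a p53-induced RNA that restrains p53, had 1.34 CPM in FH-5xA, 1.14 in FH-WT, 1.63 in knockout and 0.635 in parental cells, and rose by 1.36 ± 0.34 in knockout against parental cells in the authors' deposited table.

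AC234772.2 on chromosome X rose by 1.32 ± 0.20, AC007848.1 by 1.28 ± 0.21 and LINC01814 by 1.24 ± 0.27 in knockout against parental cells in the authors' deposited table. LINC02593 was at 1.50 ± 0.39, AC090578.2 at 1.43 ± 0.30, AC027338.2 at 1.39 ± 0.25 and Z97832.2, which overlaps SCUBE3, at 1.35 ± 0.28, all called in the authors' deposited table. Most of these are scarce: AC234772.2 had a mean of 2.28 log2 CPM, AL161431.1 of 1.57, and the other 8 of the 10 largest rises at a mean of at least 0 log2 CPM were between 0.08 and 0.70 in the authors' deposited table. In all, 25 lincRNAs were called at a rise of at least 2-fold (5.98%, against 2.93% of all genes) and 13 at a fall of that size (3.11%, against 1.71%); SEs of lincRNAs were wider, as given above.

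**Figure D2:**
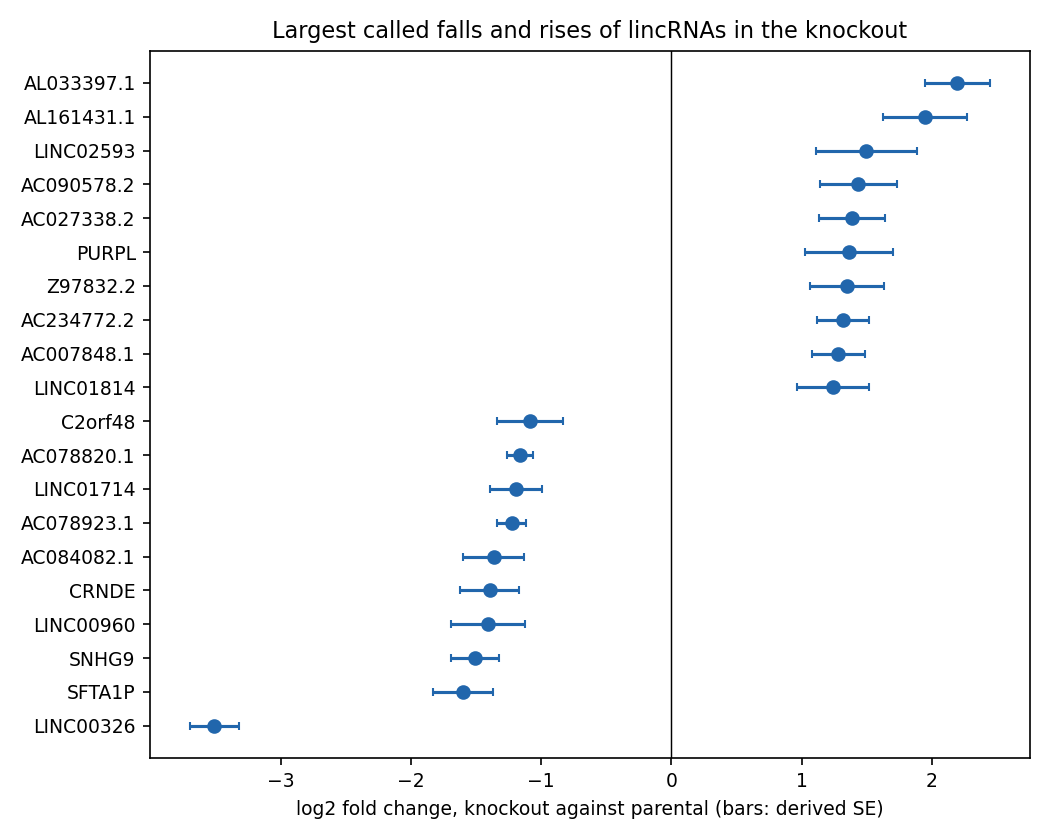
Log2 fold change in knockout against parental cells (horizontal axis) of the 10 called lincRNAs with the largest rises (top) and the 10 with the largest falls (bottom) among those with a mean of at least 0 log2 CPM; bars are derived SEs. LINC00326 at -3.51 lies far from the next fall, SFTA1P at -1.60.

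When AGO2 was given back, the largest rise of a lincRNA after FP671120.4, described further on, was that of LNCAROD, a transcript named for activating the nearby gene DKK1, a secreted WNT antagonist. LNCAROD lies at chr10:52450874-52755409, minus strand, has up to 7 exons and overlaps no other gene. Its level was 27.3 CPM in FH-5xA, 23.4 in FH-WT, 9.23 in knockout and 13 in parental cells, highest in both lines with restored AGO2. It rose by 1.56 ± 0.14 in FH-5xA against knockout and by 1.34 ± 0.15 in FH-WT against knockout in the authors' deposited tables (false discovery rates 1.0e-24 and 2.7e-17). In knockout against parental cells it fell by 0.49 ± 0.14, so with AGO2 restored it passed the parental level, by 1.07 ± 0.14 with FH-5xA and 0.85 ± 0.14 with FH-WT in the authors' deposited tables. DKK1 had 580 CPM in FH-5xA, 437 in FH-WT, 282 in knockout and 254 in parental cells. It rose by 1.04 ± 0.11 in FH-5xA against knockout and by 0.64 ± 0.11 in FH-WT against knockout, while the knockout stood at 0.15 ± 0.11 against parental cells with no call in the authors' deposited tables. FH-5xA minus FH-WT came to 0.41 ± 0.11 for DKK1 (Benjamini-Hochberg adjusted p 0.0173) and 0.22 ± 0.14 for LNCAROD (adjusted p 0.398).

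UCA1, a transcript first found in urothelial carcinoma that lies at chr19:15828206-15836326, plus strand and overlaps 2 other annotated genes, moved down at each step. Its level was 5.66 CPM in FH-5xA, 4.01 in FH-WT, 8.86 in knockout and 15.2 in parental cells, so that the parental cells were highest and FH-WT lowest. It fell by 0.65 ± 0.17 in FH-5xA against knockout and by 1.14 ± 0.18 in FH-WT against knockout, and by 0.78 ± 0.16 in knockout against parental cells, called in each of the authors' deposited tables. FH-5xA minus FH-WT came to 0.50 ± 0.19, with an adjusted p of 0.104. C2orf48 had 1.69 CPM in FH-5xA, 1.72 in FH-WT, 0.839 in knockout and 1.78 in parental cells; it rose by 1.01 ± 0.26 with FH-5xA and by 1.03 ± 0.27 with FH-WT against knockout in the authors' deposited tables. That gene overlaps an annotated coding gene, AC007240.1, and 2 others.

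Some lincRNAs that were high in the knockout came down with AGO2. These comparisons share the knockout libraries, so that chance deviations of the knockout push both values, in opposite directions. The same holds for lincRNAs lowest in the knockout, as C2orf48, LNCAROD, CRNDE and SNHG9 were. LINC02035, a single-exon gene clear of other genes, had 6.88 CPM in FH-5xA, 5.94 in FH-WT, 8.73 in knockout and 4.91 in parental cells. It stood at -0.34 ± 0.13 in FH-5xA against knockout, which was not called, at -0.56 ± 0.14 in FH-WT against knockout, and at 0.83 ± 0.13 in knockout against parental cells, in the authors' deposited tables. LINC01963 fell by 0.41 ± 0.09 and LINC02163, also named NIHCOLE for its discovery in liver cancer, by 0.66 ± 0.15 in FH-5xA against knockout in the authors' deposited table. With FH-WT those genes were at -0.22 ± 0.09 and -0.43 ± 0.15, with no call for either in the authors' deposited table. AL035071.1 had 17.4 CPM in FH-5xA, 16 in FH-WT, 20.6 in knockout and 9.69 in parental cells and fell by 0.36 ± 0.12 with FH-WT; with FH-5xA it was at -0.24 ± 0.11 and not called in the authors' deposited tables. AL365203.2 fell by 0.38 ± 0.13, AF127577.4 by 0.69 ± 0.21 and AL359715.2 by 0.77 ± 0.25 in FH-WT against knockout in the authors' deposited table, each after a called rise in the knockout. AL158071.4 fell by 0.76 ± 0.23 with FH-WT and was at 0.34 ± 0.20 in knockout against parental cells, not called, in the authors' deposited tables.

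Rises limited in size were spread over genes with little in common by name. In FH-5xA against knockout AC108062.1 (now LINC02615) rose by 0.83 ± 0.27, AC007823.1 by 0.73 ± 0.23, LINC02595 by 0.72 ± 0.19 and LINC00471 by 0.72 ± 0.25 in the authors' deposited table. In FH-WT against knockout AC104986.2 (now VPS13B-DT) rose by 0.84 ± 0.26, GAS6-DT by 0.81 ± 0.24, AC026250.1 (now LINC02709) by 0.81 ± 0.24, AC125807.2 by 0.42 ± 0.13 and TRAM2-AS1 by 0.42 ± 0.13 in the authors' deposited table. A gene called in one comparison and not in the other is not thereby shown to differ between the AGO2 forms; the derived difference below is the test of that.

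**Figure D3:**
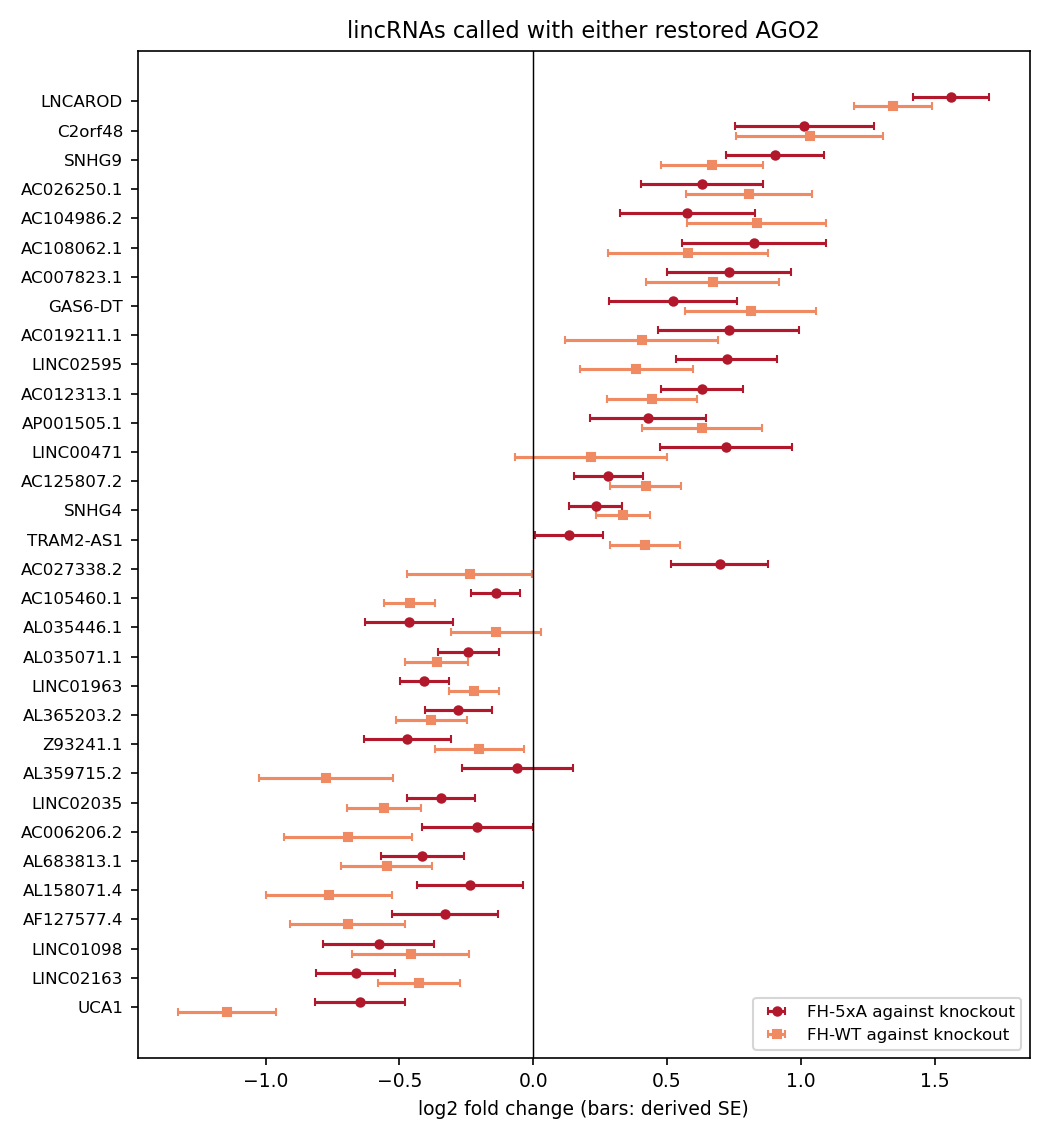
Log2 fold change against knockout cells (horizontal axis) of lincRNAs with a mean of at least 0 log2 CPM among the 10 largest called rises or falls with FH-5xA (circles, upper of each pair) or FH-WT (squares); bars are derived SEs, and FP671120.4 is left off because its fold changes lie beyond the axis. LNCAROD is at the top, at 1.56 with FH-5xA and 1.34 with FH-WT, and UCA1 at the bottom.

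Between the AGO2 forms few lincRNAs differed. No deposited table compares FH-5xA with FH-WT, so their difference was derived from the tables against knockout, with an error solved from all 5 tables. Of the 418 lincRNAs 5 were called (1.20%, against 4.11% of all genes), 4 of them higher in FH-5xA (0.957%, against 1.98%) and 1 lower (0.239%, against 2.13%). The median difference of the 418 was 0.08, against 0.01 for all genes, and 253 lay above 0. At similar mean expression the lincRNAs were not above protein-coding genes outside chromosome 7. Under 1 log2 CPM the medians were 0.11 for lincRNAs and 0.12 for protein-coding genes, and from 1 to 2 they were 0.07 and 0.15. AC027338.2, a single-exon gene at chr5:82940458-82940983, minus strand that overlaps no other gene, had 2.24 CPM in FH-5xA, 1.17 in FH-WT, 1.38 in knockout and 0.529 in parental cells, with a difference of 0.93 ± 0.22 (Benjamini-Hochberg adjusted p 0.0031). It rose by 0.70 ± 0.18 in FH-5xA against knockout and was at -0.24 ± 0.23 in FH-WT against knockout in the authors' deposited tables. AC105460.1 had 27.5 CPM in FH-5xA, 22 in FH-WT, 30.4 in knockout and 21.9 in parental cells: FH-WT was level with parental cells and FH-5xA nearer the knockout. In the authors' deposited tables it was at -0.14 ± 0.09 with FH-5xA, not called, and fell by 0.46 ± 0.10 with FH-WT against knockout, after a rise of 0.47 ± 0.09 in knockout against parental cells; FH-5xA minus FH-WT came to 0.32 ± 0.10 (adjusted p 0.0328).

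EBLN3P, a transcribed relic of an ancient bornavirus gene, had 71.9 CPM in FH-5xA, 57.8 in FH-WT, 68.7 in knockout and 63.1 in parental cells. FH-5xA minus FH-WT came to 0.31 ± 0.09 (adjusted p 0.0278), with 0.06 ± 0.09 in FH-5xA and -0.25 ± 0.09 in FH-WT against knockout, with no call for either in the authors' deposited tables. AC007228.1, the scarcest at a mean of -0.05 log2 CPM, had 1.53 CPM in FH-5xA, 0.578 in FH-WT, 1.06 in knockout and 0.685 in parental cells and a difference of 1.40 ± 0.35 (adjusted p 0.00754). AC016205.1, now annotated as the microRNA host MIR924HG, was the 1 lower gene, with 4.56 CPM in FH-5xA, 6.42 in FH-WT, 5.44 in knockout and 7.79 in parental cells and a difference of -0.49 ± 0.14 (adjusted p 0.0164). With an upper bound on the error, which counts the spread of the knockout libraries once for each form, 0 of the 418 were called.

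**Figure D4:**
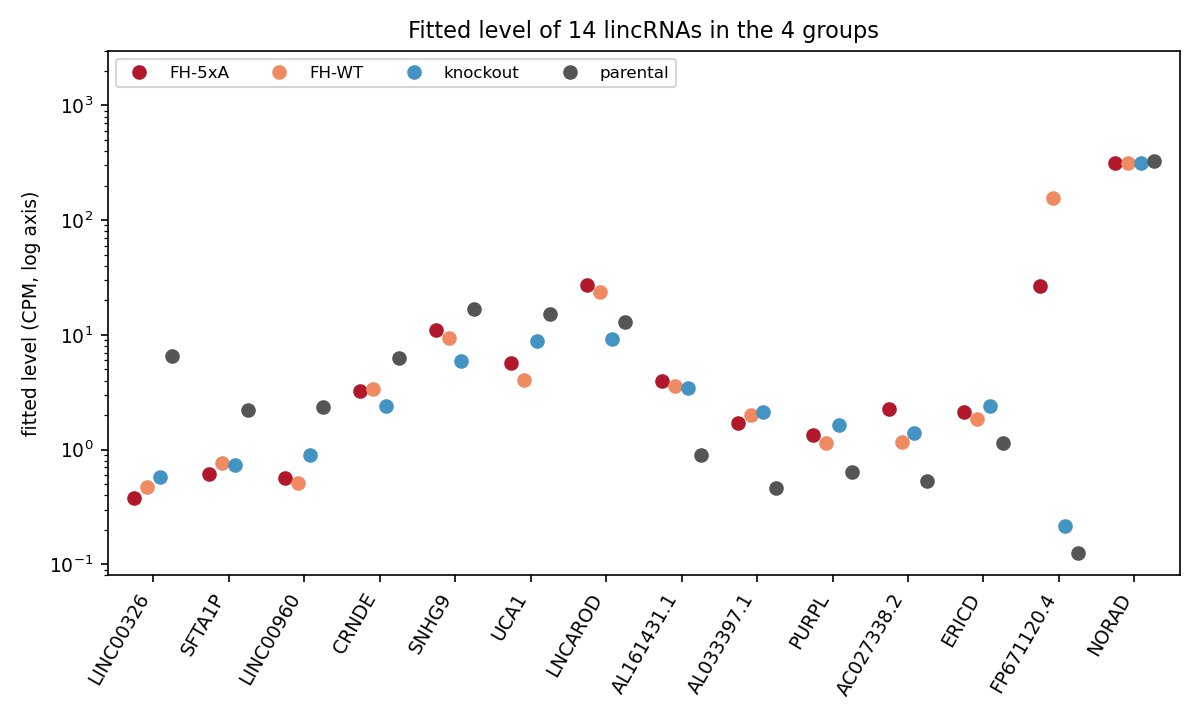
Fitted level (CPM, log axis) of 14 lincRNAs in FH-5xA, FH-WT, knockout and parental cells; each point is 1 group, without an error. LINC00326, SFTA1P, LINC00960 and CRNDE are highest in parental cells, LNCAROD in the lines with restored AGO2, and NORAD lies between 312 and 325 CPM in all groups.

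Against parental cells, FH-5xA had 169 called lincRNAs (40.4%, against 43.8% of all genes), 108 higher (25.8%, against 22.9%) and 61 lower (14.6%, against 20.9%). FH-WT had 111 (26.6%, against 34.4%), with 65 higher (15.6%, against 18.3%) and 46 lower (11%, against 16.1%). The median log2 fold change of the 418 was 0.09 in FH-5xA and 0.00 in FH-WT against parental cells, where all genes had 0.00 in both. At similar mean expression the lincRNA medians lay below those of protein-coding genes outside chromosome 7. In FH-5xA against parental cells they were 0.14 against 0.23 under 1 log2 CPM, and 0.13 against 0.21 from 1 to 2. These tables share the parental libraries with each other and with the knockout comparison. LINC00326 was at -4.09 ± 0.21 in FH-5xA and -3.77 ± 0.22 in FH-WT against parental cells, and LINC00960 at -2.05 ± 0.31 and -2.20 ± 0.34, in the authors' deposited tables. On the other side AL161431.1 was at 2.13 ± 0.32 and 1.99 ± 0.34, and AC090578.2 at 1.97 ± 0.28 and 1.42 ± 0.32, in the authors' deposited tables. OSER1-DT fell by 0.62 ± 0.18 in FH-5xA and 1.05 ± 0.20 in FH-WT against parental cells, and AL109976.1 rose by 1.54 ± 0.26 and 1.36 ± 0.29, in the authors' deposited tables.

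Hosts of small nucleolar RNAs are genes whose introns carry the RNAs that guide modification of ribosomal RNA, while their spliced exons are often short-lived. Of 37 listed host genes, 6 were among the lincRNAs, and 5 of these were called lower in knockout against parental cells and none higher, with a median log2 fold change of -0.57 in the authors' deposited table; 12 of 15 measured hosts of other gene types were lower too, with a median of -0.32. Of all genes 21.2% were called lower in that comparison. SNHG9 at chr16:1964959-1965509, plus strand had 11 CPM in FH-5xA, 9.35 in FH-WT, 5.88 in knockout and 16.7 in parental cells. It fell by 1.51 ± 0.18 in knockout against parental cells and rose by 0.90 ± 0.18 with FH-5xA and 0.67 ± 0.19 with FH-WT against knockout in the authors' deposited tables. SNHG9 starts 99 bases from RPS2, a ribosomal protein gene that fell by 0.27 ± 0.10 in the knockout in the authors' deposited table. SNHG8, the lincRNA with the highest level per length at 6.30 log2 CPM per kilobase, had 69.9 CPM in FH-5xA, 71.6 in FH-WT, 63 in knockout and 86.1 in parental cells and fell by 0.45 ± 0.08 in the authors' deposited table. SNHG19 fell by 0.69 ± 0.19, SNHG25 by 0.91 ± 0.28 and SNHG4 by 0.23 ± 0.10, while EPB41L4A-AS1 was at -0.18 ± 0.09 and not called in the authors' deposited table. With AGO2 restored, 1 of the 6 was called higher with FH-5xA and 2 with FH-WT (SNHG9 and SNHG4, which overlaps MATR3 and SIL1) against knockout, and none lower. The longest transcripts of SNHG25, SNHG19, SNHG9 and SNHG8 have 278 to 672 bases. Of 231 lincRNAs with a longest transcript under 2000 bases, 43 were called lower and 34 higher in the knockout. Of 1736 protein-coding genes under that length, 541 were called lower and 200 higher, beside the 21.2% of all genes called lower. The part of length in the fall of these hosts was not tested.

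Of 18 lncRNAs listed as induced by p53, 4 were measured, all lincRNAs: PURPL and PICART1 rose in knockout against parental cells, LINC00467 fell and PVT1 was not called, where 44.4% of all genes were called. PICART1 had 1.09 CPM in FH-5xA, 0.869 in FH-WT, 0.894 in knockout and 0.34 in parental cells and was at 1.40 ± 0.36 in the authors' deposited table; it lies 229 bases from the start of ITGA3, an integrin subunit gene, which was at 0.77 ± 0.09 there. LINC00467 fell by 0.46 ± 0.12 and PVT1 stood at -0.06 ± 0.10 in the authors' deposited table. CDKN1A, the p21 gene and a standard p53 target, rose by 2.04 ± 0.11 in the authors' deposited table, and against knockout it fell by 0.42 ± 0.11 with FH-5xA and by 0.47 ± 0.11 with FH-WT. None of the 4 was called with either AGO2 form against knockout.

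Of 24 listed lncRNAs linked to colorectal carcinoma, 7 were among the lincRNAs; 2 rose in the knockout and 3 fell, where 23.2% of all genes rose and 21.2% fell, and a list this short says little beside those shares. LINC00460 had 4.98 CPM in FH-5xA, 5.34 in FH-WT, 5.8 in knockout and 2.73 in parental cells and rose by 1.09 ± 0.16, and BLACAT1, which overlaps LEMD1, rose by 0.51 ± 0.22 in knockout against parental cells in the authors' deposited table. CRNDE, UCA1 and LNCAROD were the falls, with values above, and CYTOR at -0.04 ± 0.12 and LINC01234 at -0.08 ± 0.09 were not called in the authors' deposited table. Against knockout LNCAROD was the 1 rise of the 7 and UCA1 the 1 fall, with either form of AGO2. Of 20 lncRNAs described to bind microRNAs, which would meet Argonaute directly, 7 were lincRNAs: in the knockout LINC01089 rose by 0.47 ± 0.19, LINC00467, UCA1 and CRNDE fell, and NORAD, CYTOR and LINC00662 (0.17 ± 0.08) were not called in the authors' deposited table. Among the same 7, UCA1 was the 1 called with either form against knockout, and none rose.

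Of 14 RNAs listed as nuclear or genome-organising, 3 were among the lincRNAs: FTX, JPX and NORAD. FTX, a regulator at the X inactivation centre, rose by 0.43 ± 0.12 in the knockout, while its neighbour JPX was at -0.14 ± 0.10 and NORAD at -0.06 ± 0.10, not called, in the authors' deposited table. FTX overlaps 26 annotated genes and JPX 8, so that their reads may be shared. NORAD, the RNA induced by DNA damage that holds Pumilio proteins, had 312 CPM in FH-5xA, 318 in FH-WT, 312 in knockout and 325 in parental cells, close together in all groups. Of 11 lncRNAs of the MYC neighbourhood PVT1 was the 1 lincRNA measured, and of 12 imprinted lncRNAs none was in the tables. Against knockout, none of FTX, JPX, NORAD and PVT1 was called with FH-5xA or FH-WT.

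The most abundant members were NORAD, SNHG8, EBLN3P, AC015813.1, EPB41L4A-AS1, PVT1, FP671120.4, LINC01234, AC145207.5 and AC005332.6, by mean CPM. In knockout against parental cells AC015813.1 rose by 0.36 ± 0.09 and AC005332.6 by 0.24 ± 0.08, SNHG8 fell, and the other 7 were not called in the authors' deposited table. Per kilobase of exon the order differed: SNHG8 was at 6.30, NORAD at 5.89, FP671120.4 at 5.62, SNHG19 at 5.06 and AC105460.1 at 4.94 log2 CPM per kilobase.

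Despite the exclusion of host symbols, 8 members carry an annotated microRNA gene in their body on the same strand. AC048341.1, which holds MIRLET7I and is now named MIRLET7IHG, rose by 0.40 ± 0.17 in knockout against parental cells, FTX and CARMN also rose, C22orf34 fell by 0.31 ± 0.14 and AC016205.1 by 0.52 ± 0.12 in the authors' deposited table; PVT1, CYTOR and AC084346.2 were not called. The 3 rises and 2 falls among 8 stand beside 23.2% higher and 21.2% lower of all genes, and say little about so few. CARMN, the heart-development RNA that hosts MIR143 and MIR145, had 1.44 CPM in FH-5xA, 1.34 in FH-WT, 1.69 in knockout and 0.97 in parental cells, a change of 0.80 ± 0.28 in knockout against parental cells by the authors' deposited table. None of the 8 was called with either form of AGO2 against knockout. CARMN, C22orf34, AC048341.1 and AC084346.2 were singled out for what they host, after their values were seen.

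FP671120.4 had the largest fold changes of any member with FH-5xA or FH-WT, against knockout or parental cells, and its place in the genome sets it apart. It is annotated on the minus strand at chr21:8254592-8255514, and 3 copies on chromosome 21, each 4 base edits away over 923 bases, lie in RefSeq genes for 18S ribosomal RNA (RNA18SN1, RNA18SN2 and RNA18SN3). Its first 60 bases, identical in all 4 copies, are shown because these letters are shared with the copies in 18S genes; lower case is used throughout.
FP671120.4: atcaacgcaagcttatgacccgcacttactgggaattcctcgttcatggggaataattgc
The 3 copies are not in the tables, so reads counted for this gene could come from any copy. FP671120.4 had 26.5 CPM in FH-5xA, 155 in FH-WT, 0.215 in knockout and 0.126 in parental cells. Its log2 fold change was 6.95 ± 1.22 in FH-5xA against knockout and 9.49 ± 1.35 in FH-WT against knockout in the authors' deposited tables, with SEs several times those of other abundant members; in knockout against parental cells it was 0.77 ± 1.05 and not called. FH-5xA minus FH-WT came to -2.55 ± 1.52 and was not called (adjusted p 0.351). Of the mitochondrial ribosomal RNAs, MT-RNR2 had 8029 CPM in FH-5xA, 19429 in FH-WT, 2094 in knockout and 939 in parental cells, and MT-RNR1 had 343 CPM in FH-5xA, 445 in FH-WT, 207 in knockout and 95.4 in parental cells. Against knockout MT-RNR2 was at 1.94 ± 0.71 with FH-5xA, not called, and rose by 3.21 ± 0.75 with FH-WT, while MT-RNR1 was at 0.73 ± 0.48 and 1.10 ± 0.48, not called with either, in the authors' deposited tables. Ribosomal RNA was removed before sequencing, and the part of that step in these values was not tested. Without FP671120.4 the 417 other lincRNAs made up 0.237% of the fitted CPM in FH-5xA, 0.220% in FH-WT, 0.231% in knockout and 0.230% in parental cells.

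For 101 lincRNAs a protein-coding gene starts within 2000 bases in the opposite direction, and 99 of those neighbours were measured. In knockout against parental cells the log2 fold changes of lincRNA and neighbour had a Pearson r of 0.31 over the 99 pairs, against 0.06 over 226 other lincRNAs whose nearest coding gene was measured, and 0.22 over 2042 protein-coding genes with a divergent coding neighbour. In FH-5xA against knockout r was 0.29 over the 99, 0.16 over the 226 and 0.24 over the 2042, and in FH-WT against knockout it was 0.12, -0.01 and 0.21. Such pairs share libraries and may share base composition and open chromatin, which were not examined for them. These correlations across genes are a description. In the knockout 31 of the 99 lincRNAs were called, and in 15 of these pairs the neighbour was called too, where 44.4% of all genes were called. In 8 of the 15 pairs the genes moved the same way, and so few pairs say little. LINC00941 rose by 0.88 ± 0.13 beside CAPRIN2 at 0.43 ± 0.08, in the authors' deposited table. AP002360.1 fell by 0.66 ± 0.14 beside EMSY at 0.39 ± 0.09, and TRAM2-AS1 fell by 0.48 ± 0.12 beside TRAM2 at 0.35 ± 0.09, in opposite directions, in the authors' deposited table. LINC00941 and AP002360.1 were picked after their values were seen.

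One divergent pair holds the edited gene itself. ERICD, a single-exon lincRNA described as an E2F1-regulated inhibitor of cell death, starts 662 bases from AGO2 at chr8:140636281-140638283, plus strand, and was singled out for that position after its values were seen. ERICD had 2.14 CPM in FH-5xA, 1.86 in FH-WT, 2.4 in knockout and 1.14 in parental cells. It rose by 1.07 ± 0.23 in knockout against parental cells (false discovery rate 2.4e-05) while AGO2 fell by 0.35 ± 0.07, in the authors' deposited table. With FH-5xA ERICD was at -0.17 ± 0.21 and with FH-WT at -0.36 ± 0.23 against knockout, neither called, and against parental cells it was higher by 0.91 ± 0.24 and 0.71 ± 0.26, both called in the authors' deposited tables. All lines derived from the knockout were thus above the parental cells.

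**Figure D5:**
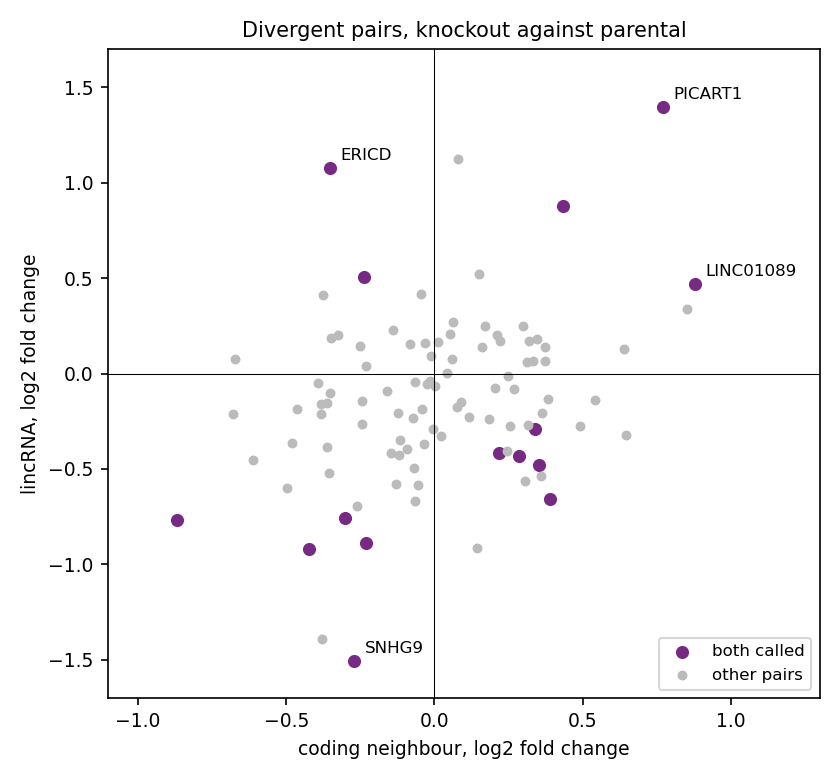
Log2 fold change in knockout against parental cells of 99 lincRNAs (vertical axis) and of their divergent protein-coding neighbours (horizontal axis); dark points are the 15 pairs in which both genes were called. ERICD lies in the upper left, with its neighbour AGO2 at -0.35, and SNHG9 in the lower left.

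Seed sites were set against the fold changes as counts. The 92 lincRNAs with 3 or more sites for the 8 microRNAs had 31 called higher and 9 lower in knockout against parental cells in the authors' deposited table, with a median log2 fold change of 0.15. The 174 with 1 or 2 sites had 38 higher and 28 lower with a median of 0.01, and the 152 with none had 24 higher and 32 lower with a median of 0.01. Of all genes 23.2% were called higher and 21.2% lower in that comparison, and these shares stand beside all counts of this paragraph. Taken singly the microRNAs differed, and the 2 ends of the range are given. For miR-21-5p, the highest, the median was 0.37 over 38 lincRNAs with a site and 0.01 over those without. For miR-17-5p, the lowest, with sites in 97, it was 0.05 with a site and 0.06 without. The other medians with a site lay between 0.08 (miR-34a-5p) and 0.21 (miR-19b-3p). With AGO2 restored the medians of the 3 groups, from most sites to none, were 0.05, 0.00 and 0.04 in FH-5xA against knockout and -0.01, -0.05 and -0.01 in FH-WT against knockout. Transcripts with more sites were longer, with medians of 3149.5, 1959 and 861.5 bases, and more abundant, with median means of 1.56, 0.95 and 0.72 log2 CPM. By length alone, at a bound chosen after the values were seen, the 187 lincRNAs with a longest transcript of 2000 bases or more had 59 higher and 26 lower in the knockout with a median of 0.17, and the 231 shorter ones had 34 higher and 43 lower with a median of -0.07. Protein-coding genes split the same way: 2590 higher and 1877 lower of 9501 with long transcripts, and 200 higher and 541 lower of 1736 with short ones. Within the 187 long lincRNAs, those at or above their median number of sites per kilobase had 34 higher and 8 lower of 94 with a median of 0.21, and those below it 25 higher and 18 lower of 93 with a median of 0.12. Length, level and site number moved together here, and the part of each was not tested.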

How the data were processed

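RNA-seq of 12 HCT116 libraries in 4 groups of 3 was used through 5 tables of the authors' comparisons. For each gene the deposited columns are, per the file headers, the log2 fold change, the average log2 CPM (the same in all 5), the score of a likelihood ratio test, its p-value and the false discovery rate. Per the submitters' processing notes, edgeR 3.8.6, featureCounts 1.4.6, Cufflinks 2.2.1, TopHat2 2.0.12 and GRCh38 were used; the sources used here do not name the annotation, the filter on low counts or the strand setting. The tests planned for counts per library gave way to the deposited edgeR tests, since values per library were not analysed here and depth is unknown. The deposited p-value equalled the chi-square upper tail with 1 degree of freedom at the score to within 7.4e-15, and the deposited false discovery rate its Benjamini-Hochberg adjustment. With 1 line per group, p-values reflect the variation among its wells. SE was computed as the absolute log2 fold change divided by the square root of the score. For FH-5xA minus FH-WT, the variance of each group was solved from the 5 squared SEs and the chi-square test adjusted over 15072 genes. The method was run on simulated data built with the same additive group variances. That run cannot show whether the deposited scores follow such variances. GENCODE 29, which held 15029 of the 15074 identifiers, gave types, positions and transcripts. Named members were LINC00326 and LNCAROD, the 10 largest called rises and falls per comparison at a mean of at least 0 log2 CPM, those called in the derived difference, up to 4 members per list with the smallest p in knockout against parental cells, and the 10 most abundant. Some items are not reported here. Genes that are no members were looked up after the members' values were seen. The members and lists were chosen with earlier results of these data known. Alternatives were a false discovery rate under 0.01, genes of at least 1 log2 CPM, chromosome 7 left out, centring on the median, lincRNAs clear of other genes, and other routes and errors for the derived difference. Python 3.11.15, pandas 2.3.3, numpy 2.4.6 and scipy 1.17.1 were used.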

Additional observations from a re-analysis of the deposited data

Results flagged for a closer look

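Of the 418 lincRNAs, 5 differed between FH-5xA and FH-WT by the derived test of that difference, at a Benjamini-Hochberg adjusted p under 0.05. AC027338.2 differed by 0.93, AC007228.1 by 1.40, EBLN3P by 0.31 and AC105460.1 by 0.32 on the log2 scale, higher in FH-5xA, and AC016205.1 by -0.49, lower in FH-5xA. None of the 5 was called with the upper bound on the error. AC007228.1, AC105460.1 and AC016205.1 each overlap another annotated gene. Single samples that stand apart could not be searched for, since the deposited tables hold no value per library.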

How the results depend on the processing

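No paired analysis was possible because the deposited tables hold no value per library; for the same reason neither the fit with a replicate block nor leaving out each replicate in turn was run. Counts of called lincRNAs are given for knockout against parental, FH-5xA against knockout, FH-WT against knockout, FH-5xA against parental, FH-WT against parental and FH-5xA minus FH-WT. In the main analysis they were 162, 30, 23, 169, 111 and 5. Among the 206 members of at least 1 log2 CPM they were 91, 18, 16, 97, 66 and 3, among the 197 that overlap no other gene 77, 13, 12, 80, 53 and 2, and among the 65 with no gene within 5 kb 33, 8, 2, 29, 20 and 1; these settings keep fewer genes by construction. Under a false discovery rate of 0.01 they were 124, 10, 7, 118, 77 and 2, and with the upper bound on the error of the derived difference 0. Leaving out chromosome 7, centring and, for the derived difference, the route through the parental tables kept every count within 1.5 times, with centring medians between -0.02 and 0.01. No recomputed call of a named lincRNA reversed: of 181, centring ended 4, leaving out chromosome 7 ended 2 and the stricter rate 39. Unknown depth limits what can be said of scarce members: 39 of the 418 had a mean under 0 log2 CPM, and their fold changes have wide errors.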

Other observations

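AC006206.2 and AC007848.1 lie on chromosome 12 with NTF3 as nearest coding start, and in the authors' deposited table they were at 0.67 ± 0.22 and 1.28 ± 0.21 in knockout against parental cells. AC234772.2 and LINC02595 both lie on chromosome X; in the authors' deposited tables they were at 1.62 ± 0.20 and 0.88 ± 0.19 in FH-5xA against parental cells, and at 1.32 ± 0.20 and 0.16 ± 0.21 in knockout against parental cells, where LINC02595 was not called. AL606763.1 fell by 1.18 ± 0.29 in FH-5xA and was at -0.43 ± 0.28, not called, in FH-WT against parental cells in the authors' deposited tables; its derived difference was -0.75 ± 0.32, with an adjusted p of 0.161.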
